A study of Mus musculus with 21 samples.

Results

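Lep, C1qtnf3 and Fam3c encode secreted proteins of fat tissue, and their levels were followed through the culture of cells from mouse subcutaneous fat. They are 3 of the 30961 gene models measured and were taken by symbol. They were chosen by name with their measured levels over the 7 groups already known from the same libraries, so these levels and their differences are given as a description, with no p-value. The study is titled as one on epigenetic changes and cardiomyocyte differentiation of the stromal vascular fraction, which is the mixture of cells that remains when digested fat is freed of its adipocytes. All 7 groups came from female C57BL/6J mice aged 8 to 12 weeks and from inguinal subcutaneous fat without its lymph nodes. Cells of primary culture (P0) were sampled fresh on day 0 and after 3, 7, 14, 21 and 28 days on uncoated plates in IMDM with fetal bovine serum. A last group (P1) held day 28 cells that had been passaged and grown for 28 days more, so passage and added time in culture cannot be told apart. Each group had 3 RNA-seq libraries, and no group received a further agent or carried a modified allele according to the labels. The labels do not say whether a replicate number marks an animal, a pool or a dish.

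Leptin, the product of Lep, is a hormone released by adipocytes in proportion to stored fat, and it acts on a cytokine-type receptor in the hypothalamus to curb feeding. C1qtnf3, also known as CTRP3, belongs to the C1q and tumour necrosis factor related proteins, the family of paralogs of adiponectin, and carries a collagen-like stretch and a globular C1q domain. Fam3c, also called interleukin-like EMT inducer, is a small secreted protein of the FAM3 family that is made in many tissues and is known for its part in the transition of epithelial cells to a mesenchymal state.

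The promoters of the 3 genes are shown as a description of their start regions. Any relation of these regions to the courses of the genes was not tested. Each stretch runs 5′ to 3′ on the strand of its gene, from 250 bases before to 50 bases after the start, as annotated by RefSeq on GRCm38.p6. Capitals mark the letters of motifs found by an exact search of both strands. All 3 genes had an entry. That of Lep is chr6:29059971-29060270 on the plus strand, that of C1qtnf3 is chr15:10952082-10952381 on the plus strand, and that of Fam3c is chr6:22356032-22356331 on the minus strand.
Lep: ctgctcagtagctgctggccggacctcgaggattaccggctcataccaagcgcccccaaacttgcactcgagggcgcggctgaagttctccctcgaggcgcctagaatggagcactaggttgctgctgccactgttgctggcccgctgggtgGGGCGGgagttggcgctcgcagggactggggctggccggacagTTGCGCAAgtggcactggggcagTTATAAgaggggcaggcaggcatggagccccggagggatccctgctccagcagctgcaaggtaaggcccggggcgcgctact
C1qtnf3: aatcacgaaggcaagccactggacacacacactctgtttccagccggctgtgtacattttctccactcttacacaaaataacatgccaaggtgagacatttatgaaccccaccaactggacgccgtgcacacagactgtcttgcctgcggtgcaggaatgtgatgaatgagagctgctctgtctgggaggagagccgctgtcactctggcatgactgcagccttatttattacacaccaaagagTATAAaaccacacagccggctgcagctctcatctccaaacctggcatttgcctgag
Fam3c: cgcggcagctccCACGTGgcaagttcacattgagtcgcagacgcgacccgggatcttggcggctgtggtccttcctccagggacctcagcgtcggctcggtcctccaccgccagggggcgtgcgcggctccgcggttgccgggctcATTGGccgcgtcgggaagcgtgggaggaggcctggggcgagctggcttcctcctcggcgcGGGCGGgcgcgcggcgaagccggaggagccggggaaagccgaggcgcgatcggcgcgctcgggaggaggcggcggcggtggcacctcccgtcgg
The Lep promoter held TATAA, the core of a TATA box, on both strands in overlapping positions between bases -32 and -27. It also held the palindrome TTGCGCAA, an ideal binding site of the C/EBP factors, at -55 to -48 and the GC box letters GGGCGG at -98 to -93. The C1qtnf3 promoter held TATAA at -6 to -2 and no other motif searched. The Fam3c promoter held GGGCGG at -44 to -39, the E-box CACGTG at -238 to -233 and, on the opposite strand, the CCAAT box at -104 to -100. Neither TGACGTCA, the cyclic AMP response element, nor TGANTCA, the AP-1 site, occurred in any of the 3 windows. Among 32544 promoters of the same length, 24.8% held TATAA, 0.184% TTGCGCAA, 35.9% GGGCGG, 7.17% CACGTG, 37.4% CCAAT, 1.8% TGACGTCA and 7.79% TGANTCA. A match describes letters and shows no binding. The GC content was 66% for Lep, 50.7% for C1qtnf3 and 75% for Fam3c, against a median of 53.0% over all promoters. The Fam3c stretch held 45 CpG dinucleotides, more than 98% of all promoters, whereas Lep had 19 and C1qtnf3 had 7, which is also the median.

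Levels are given on a scale recovered from the deposited log2 values. Each library was scaled by 1 factor, and low values were set to a pair of floors, read here as 30 for low counts and 16 for no reads. This reading is an inference from the steps between values, and the differences between groups do not rest on it for values above the floors. Reads above the floor came to between 2650232 and 4003360 per library. The low floor stood for 17.97 to 24.55 reads in the day 0 libraries and for 24.63 to 40.46 reads in the later ones. Poisson intervals of read numbers cover counting error only, since reads without molecular identifiers are not independent molecules. Symbols and values were out of register in most of the table, so that only 487 of 16184 protein-coding symbols could be supported. The 3 genes lie in stretches of chromosomes 6 and 15 where they were in register to within 1000 bases, with a probability of 1.00 for Lep, 0.983 for C1qtnf3 and 1.00 for Fam3c. A limit of 200 bases was not met, with probabilities of 0.779, 0.0923 and 0.779. No other annotated gene overlapped any of the 3. In the GENCODE M21 annotation of GRCm38, Lep spans bases 29060220 to 29073877 and Fam3c bases 22306520 to 22356243 of chromosome 6, and C1qtnf3 spans bases 10952332 to 10980150 of chromosome 15.

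**Figure D1:**
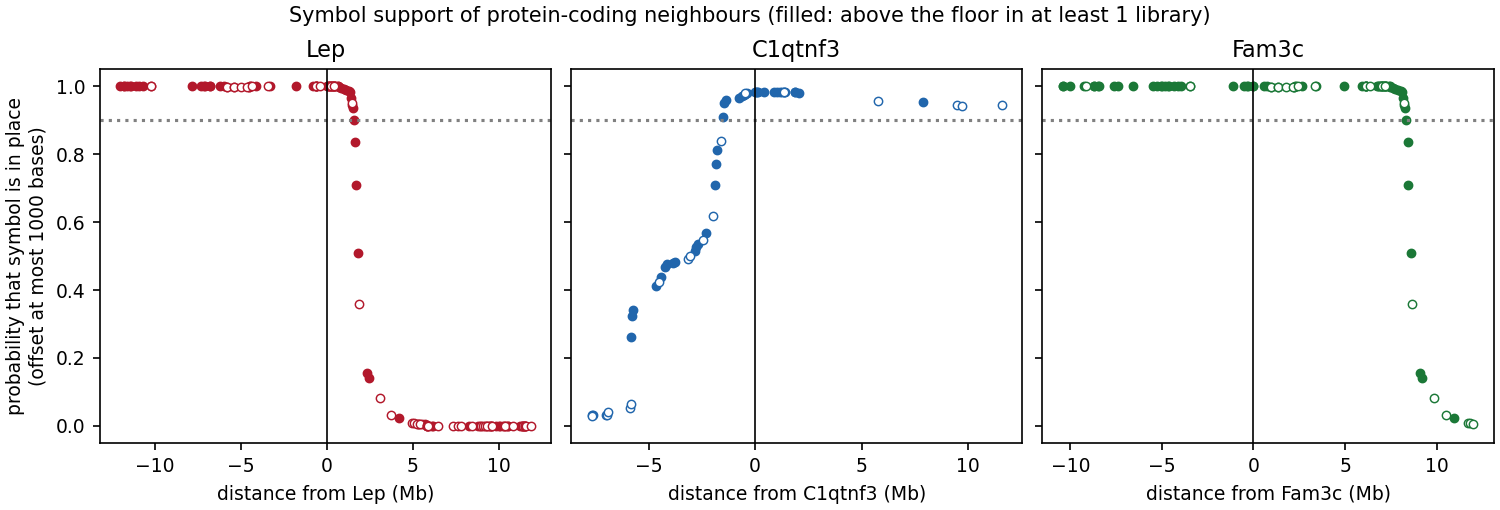
Probability that a symbol is in register with its values (offset of at most 1000 bases) for protein-coding neighbours of each gene, against distance in Mb. Filled points are genes above the floor in at least 1 library and the dotted line is the limit of 0.9. Lep and Fam3c lie on a plateau near 1.00 that ends to the right of each, and C1qtnf3 lies at 0.983 to the right of a rise.

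Lep was measurable in the fresh fraction and in no cultured library. On day 0 the scaled level was 87.0, 36.7 and 47.7 in replicates 1, 2 and 3, or 57.1 ± 26.5 (SD, n = 3). These levels rested on 53 reads (95% exact Poisson interval 39.7 to 69.3), 22 reads (13.8 to 33.3) and 39 reads (27.7 to 53.3). Replicate 1 stood above the other two, and all 3 were near the low end of what the table can show.

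Of the 18 later libraries, 15 were at the floor read as no reads. The remaining 3, replicate 3 of each of days 7, 21 and 28, were at the low floor of 30. On the deposited scale the level was therefore at least 1.78-fold lower in every later group than on day 0, with the day 0 geometric mean of 53.4 set against the low floor. The 22 reads of day 0 replicate 2 would have been under the low floor of every later library, where it stood for at least 24.63 reads. As RPM over the recovered reads, Lep was at 8.22, 10.1 and 19.2 in the day 0 libraries in rising order, and the low floor of the later ones lay at 8.11 to 12.3. In the limma fit across all groups the log2 difference was -1.74 ± 0.32 (SE) at day 3 and -1.44 ± 0.32 at day 28, both against day 0, but these values depend on where the floors lie and are no bound. After quantile normalization they were -1.10 and -0.80. From day 3 on all Lep values were at a floor, and no later comparison of its level was possible.

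Of the supported adipocyte, epithelial and lymphocyte markers, Aqp7, Prlr and Tox were also called lower on day 3, and Esrp1 was not called. This held on the deposited scale, after quantile normalization and after scaling to the median gene model. On the deposited scale 40.5% of all gene models and 150 of the 400 tested genes with a supported symbol were called lower then. Of the 12 adipocyte markers listed, only Aqp7, the glycerol channel of adipocytes, had a supported symbol. Its level was 1597 to 1675 on day 0, and afterwards it was at a floor in all but 2 libraries, which had 32.6 (day 7) and 43.8 (P1). Summed over 3 supported epithelial markers of 12 (Esrp1, Grhl2 and the prolactin receptor Prlr), the level was 30655 to 70269 on day 0, 3274 to 3416 on day 3 and at most 139 from day 14 on, with values at a floor taken as 0. Nearly all of the drop by day 3 was that of Prlr, from 27341 to 66942 on day 0 to between 485 and 731 on day 3. Esrp1, a splicing factor of epithelial cells, was at 2345 to 2715 on day 0 and 2023 to 2180.0 on day 3 and was not called (-0.24 ± 0.28, SE, and 0.06 after quantile normalization). Grhl2, a transcription factor of epithelia, was called lower on day 3 (-0.66 ± 0.24), but not after quantile normalization or scaling to the median gene model. All 3 were called lower on day 28 than on day 0, as were 47.1% of all gene models. Of 12 lymphocyte markers, 3 had a supported symbol, and Pax5 and Sit1 were above the floor in no library. Tox, which acts in T cell development, was at 118 to 130.2 on day 0, at the low floor in 9 of 12 libraries of days 3 to 21, at 34.5 to 61.5 on day 28 and at 53.3 to 80.6 in P1. It was called lower on day 3 (-1.80 ± 0.34) and on day 28 (-1.55 ± 0.34), the latter not after quantile normalization (-0.67). The part of these markers in the result for Lep was not tested. In bulk RNA, fewer cells of a type and less RNA per cell cannot be told apart.

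C1qtnf3 took the opposite course, from near the floor on day 0 to levels between 1202 and 3650 from day 14 on. On day 0 its level was 42.7 in replicate 1, from 26 reads (95% exact Poisson interval 16.98 to 38.10), and at the low floor of 30 in the other two. On day 3 the libraries gave 111, 108 and 118, or 113 ± 5.11 (SD, n = 3). All day 3 values were above all day 0 values, and the 3 day 3 libraries differed little among themselves.

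On day 7 the C1qtnf3 level was 599, 799 and 1374, or 924 ± 402 (SD, n = 3), with replicate 3 well above the other two. Day 14 gave 1764, 2361 and 1823, or 1983 ± 329. All day 14 libraries were above all day 7 libraries, so each of the first 4 time points was higher than the one before. Day 21 gave 1407, 1202 and 2161, or 1590 ± 505. It overlapped both day 7 and day 14. Day 28 gave 2542, 1766 and 2835, or 2381 ± 552, and P1 gave 3650, 2487 and 2109, or 2749 ± 803. On the deposited scale the groups from day 14 on all overlapped one another, so their order by mean (day 21, day 14, day 28, P1) was within the spread.

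The log2 difference of C1qtnf3 was 1.74 ± 0.29 (SE) from day 0 to day 3, and 4.13 ± 0.29 from day 3 to day 14. With 2 of 3 day 0 libraries at the floor, the first value understates the difference to the extent that they lay below it. From day 14 to day 28 it was 0.25 ± 0.29, and 0.01, 0.04 and 0.11 after quantile normalization, scaling to the median gene model and scaling to recovered reads. From P0 day 28 to P1 it was 0.20 ± 0.29, and 0.48, 0.49 and 0.51 under these scalings, with no call. On the deposited scale that last difference was -0.0050 without replicate 2 of P0 day 28 and -0.03 without replicate 1 of P1. In RPM computed here over the recovered reads, a scale that uses no factor of the authors, C1qtnf3 was at 32.5 to 37.7 on day 3, 574 to 842 on day 14, 357 to 584 on day 21, 574 to 829 on day 28 and 816 to 1323 in P1. On that scale P1 stood above day 21 without overlap, and every other pair of groups from day 14 on overlapped.

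Col1a2 and Svep1, markers of fibroblasts, moved with C1qtnf3. Of 13 such markers listed, Col1a2, Col15a1 and Svep1 had a supported symbol, and their summed level was 7864 to 9016 on day 0, 18905 to 22771 on day 3 and 69791 to 75489 on day 7. It was 181701 to 218035 on day 14 and 131706 to 171284 on day 28, and 90293 to 125774 in P1. The sum is nearly all Col1a2, at 7459 to 8508 on day 0 and 124800 to 162540 on day 28. Svep1 was at 117 to 154 on day 0, 374 to 583 on day 3 and 6309 to 7630.0 on day 28. Col15a1, a basement membrane collagen, went the other way first: it was at 252 to 560 on day 0 and 79.4 to 179 on day 3, and was called lower (-1.64 ± 0.30, SE) on the deposited scale, after quantile normalization and after scaling to the median gene model. Of all gene models, 40.5% were called lower on day 3. Col15a1 was called higher on day 28 than on day 0 (1.21 ± 0.30), as were 13.2% of all gene models. Col1a2 and Svep1 were called lower in P1 than on P0 day 28, and C1qtnf3 was not called. Lower calls were made for 12.9% of all gene models and 133 of the 400 tested genes with a supported symbol. The calls of Col1a2 and Svep1 were lost after quantile normalization and after scaling to the median gene model. Quantile normalization gave Col1a2 the same mean log2 level, 16.935, on day 28 and in P1, so it could show no difference there. The part of these markers in the course of C1qtnf3 was not tested.

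Fam3c was abundant in every library and was highest on days 3 and 7. On day 0 the level was 5039.9, 5335 and 5190.4, or 5188 ± 147 (SD, n = 3), from 3069 to 4248 reads. Day 3 gave 11140.1, 11619 and 10983, or 11247 ± 331, and day 7 gave 12155, 11326 and 13385, or 12289 ± 1036. The day 3 and day 7 libraries overlapped, and each of them was more than any library of another group.

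On day 14 the Fam3c level was 3832, 3602 and 3699.9, or 3711 ± 115, and every library was under every day 0 library. Day 21 gave 3508, 3516 and 4359.6, or 3795 ± 489. Day 28 gave 3264, 4421 and 4182, or 3956 ± 611. Days 14, 21 and 28 overlapped one another. In P1 the level was 7227, 6149 and 8942, or 7439 ± 1409, so the 3 libraries stood above all those of days 0, 14, 21 and 28 and below all those of days 3 and 7.

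**Figure D2:**
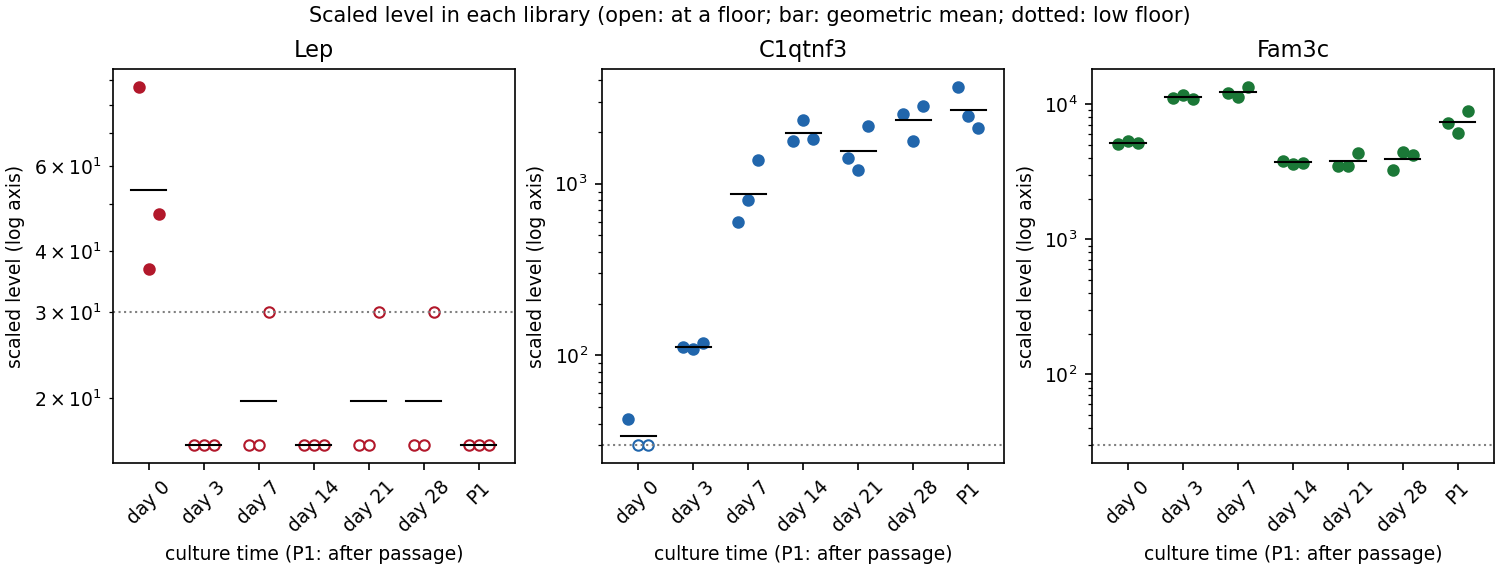
Scaled level (log axis, own range for each gene) in each of 3 libraries per group against culture time. Open points are at a floor, bars are geometric means and the dotted line is the low floor of 30. Lep is above the floor on day 0 alone, C1qtnf3 climbs to day 14 and then overlaps between groups, and Fam3c is highest on days 3 and 7 and intermediate in P1.

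The log2 difference of Fam3c was 1.12 ± 0.13 (SE) from day 0 to day 3 and -1.60 ± 0.13 from day 3 to day 14, a level 3.03-fold lower. It was 0.08 ± 0.13 from day 14 to day 28 and 0.91 ± 0.13 from P0 day 28 to P1, a level 1.87-fold higher. These differences kept their direction under all scalings tried, except that from day 14 to day 28 (-0.11, -0.13 and -0.05). The call for P1 was lost when only the compared groups were fitted, with an SE of 0.19. The SE of 0.13 pools the spread of all 7 groups. The SD of the log2 level of Fam3c was 0.041 on day 0, 0.23 on P0 day 28 and 0.27 in P1. Between day 28 and day 0 the deposited scale gave -0.40 ± 0.13, and the direction depended on the scaling and the call also on 1 library. It was -0.13 after quantile normalization, -0.07 after scaling to the median gene model, 0.11 after scaling to recovered reads, and -0.27 without replicate 1 of day 28, and in none of these 4 was it called. In the same RPM, Fam3c was at 1095 to 1194 on day 0, 3489 to 3570.0 on day 3, 3439.7 to 4119.9 on day 7, 1246 to 1284 on day 14, 1064 to 1437 on day 28 and 2521 to 3459.6 in P1. On that scale the day 28 range contained the day 0 range and day 14 lay above day 0. Day 3 stood above every group but day 7, and the lowest day 7 library was just below the highest of P1.

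**Figure D3:**
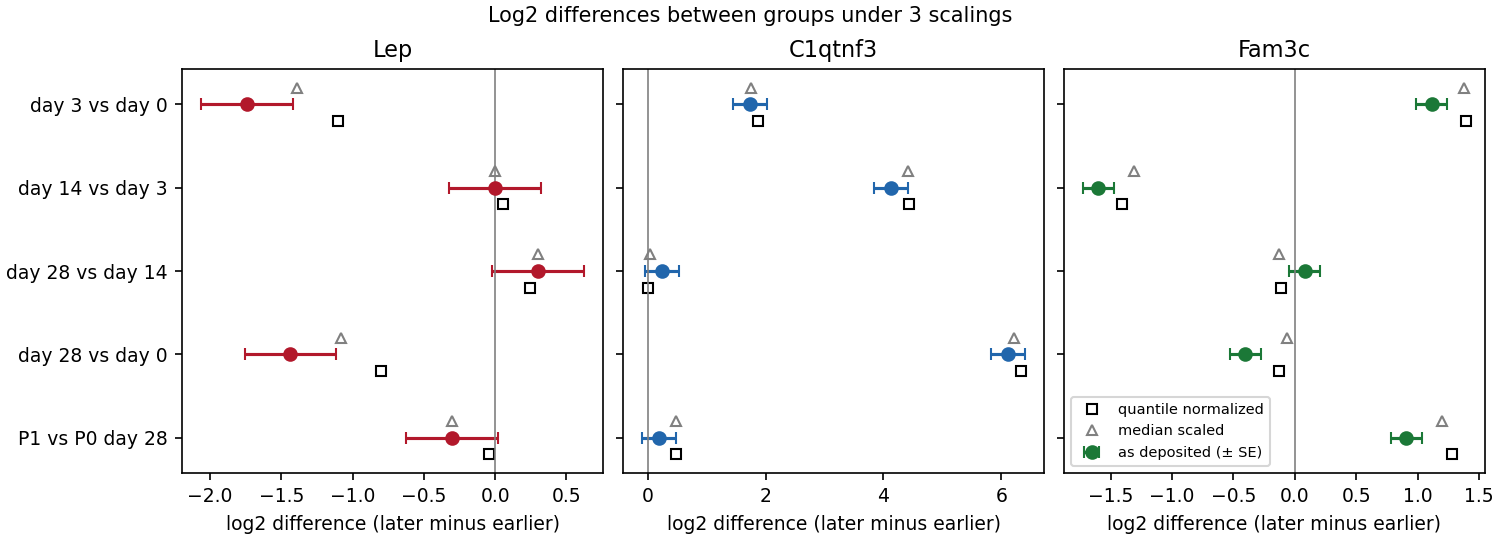
Log2 difference between groups (later minus earlier) for each gene and 5 comparisons. Filled points with bars are the deposited scale ± SE, open squares follow quantile normalization and open triangles scaling to the median gene model. The Fam3c difference of day 28 and day 0 moves from -0.40 to -0.13 and -0.07, and those of C1qtnf3 up to day 14 stay far from 0.

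Counts of the 3 genes called by limma (Benjamini-Hochberg adjusted p under 0.05) stand beside the share of all 7767 tested gene models called, and nothing is read from them, since the same contrasts chose the genes. All 3 passed the filter of a level above 30 in at least 3 libraries. Lep passed it through its 3 day 0 libraries alone and so had to differ. For day 3 against day 0, 3 of 3 were called (C1qtnf3 and Fam3c higher, Lep lower), beside 51.4% of gene models, 10.9% higher and 40.5% lower. For day 14 against day 3, 2 of 3 were called (C1qtnf3 higher, Fam3c lower), beside 33.8%, 7.85% higher and 25.9% lower. For day 28 against day 14 none was called, beside 6.5%, 5.69% higher and 0.811% lower. For day 28 against day 0, 3 of 3 were called (C1qtnf3 higher, Lep and Fam3c lower), beside 60.3%, 13.2% higher and 47.1% lower. For P1 against P0 day 28, 1 of 3 was called (Fam3c higher), beside 14.7%, 1.85% higher and 12.9% lower. The scaling moved these shares: of the gene models called for day 28 against day 0, 21.9% were higher on the deposited scale, 52.4% after quantile normalization, 34% after scaling to the median and 42.9% after scaling to recovered reads. Over the gene models that no library had at a floor, the median log2 difference was -0.26, -0.33, 0.20, -0.33 and -0.27 in the 5 comparisons in the order given. The Fam3c difference of -0.40 between day 28 and day 0 thus lay close to that of the median gene model, -0.33.

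Per kb of exon (3354 bases for Lep, 2557 for C1qtnf3 and 3713 for Fam3c), the levels of the 3 genes can be set side by side as far as these lengths hold. At the offset that fitted best in each stretch, 90.3% of the exon bases of Lep, 57.1% of those of C1qtnf3 and 69.3% of those of Fam3c still overlapped exons of the same gene, so the lengths over which reads were counted may differ from these. On day 0 the geometric mean per kb was 1397 for Fam3c, 15.9 for Lep and 13.2 for C1qtnf3. The last value is an upper limit in 2 of its 3 libraries, so the order of Lep and C1qtnf3 is not given by these data. The Fam3c level per kb was 106-fold that of C1qtnf3 on day 0, 68.8-fold on day 3 and 9.71-fold on day 7. The first of these is understated to the extent that C1qtnf3 lay below the floor. Within single libraries it was 1.051 to 1.496-fold on day 14, 1.39 to 2.02-fold on day 21, 0.884 to 1.72-fold on day 28 and 1.36 to 2.92-fold in P1. The group ratio of day 28, 1.16, was 0.948 without replicate 2, so the order of the pair on day 28 is not given by these data, and small ratios could also turn with the exon lengths. Among 485 supported genes with a level, C1qtnf3 ranked at the 21.4th percentile on day 0, the 41.6th on day 3, the 76.9th on day 7 and the 90.3rd on day 28. Values at a floor were ranked as they stood, so its day 0 rank depends on the low floor and on exon length. Fam3c was at or above the 91.5th percentile in every group and reached the 98.4th on day 3. Lep stood at the 24.7th percentile on day 0.

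**Figure D4:**
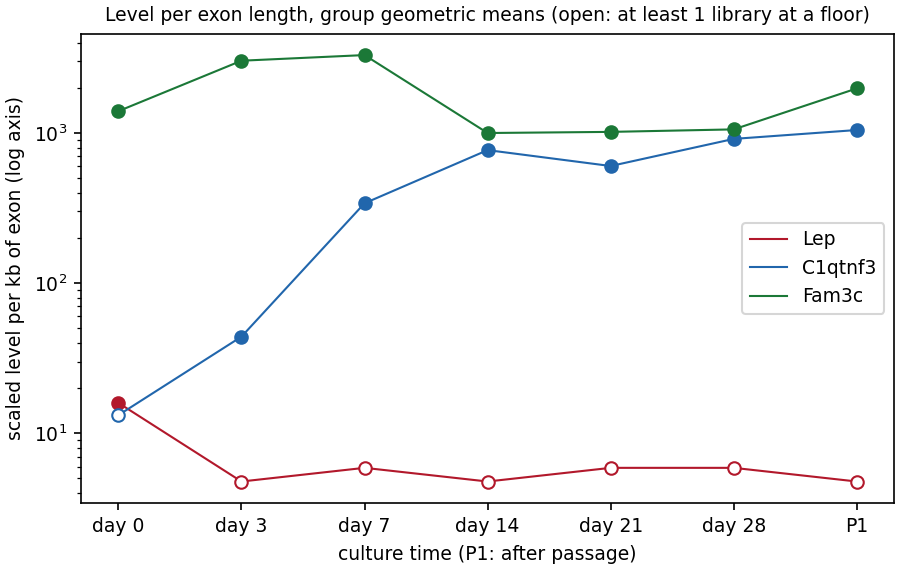
Geometric mean of the scaled level per kb of exon (log axis) in each group for the 3 genes. Open points have at least 1 of 3 libraries at a floor and are upper limits. Fam3c is 106-fold above C1qtnf3 on day 0, and on day 28 the pair lies close together, with ratios of 0.884 to 1.72 in single libraries.

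Across the 7 group means of the log2 level the 3 courses differed from one another, with Pearson's r of -0.71 between Lep and C1qtnf3, -0.17 between Lep and Fam3c and -0.31 between C1qtnf3 and Fam3c. These values and those below describe 7 means from the same libraries. Candidates were 290 tested genes with a supported symbol and group means spanning at least 1 log2 unit. Every Lep mean after day 0 is made of floor values, so its r values rest on the day 0 mean. Genes high on day 0 and lower in all later groups thus score high. The 5 most like Lep were Fhl5, Vps13b, Cttnbp2, Hepacam2 and Aqp3 (r = 0.985 to 0.976). Of these Aqp3, an aquaporin that also carries glycerol, had a mean log2 level of 10.55 on day 0 and 4.60 on day 3, and Fhl5 had 6.07 on day 0 and was at the floor for no reads on day 3. Vps13b was well above the floors in all groups, with 9.68 on day 0 and 8.08 on day 3, and the other 4 were near a floor after day 0.

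The 5 most like C1qtnf3 were Col1a2 (r = 0.974), which encodes a chain of type I collagen, then Fam221b (0.949), Gng10 (0.936), Rai14 (0.931) and Svep1 (0.923), an extracellular matrix protein. The mean log2 level of Col1a2 went from 12.98 on day 0 to 14.26 on day 3 and 17.58 on day 14, a climb of 4.60, against 6.31 for C1qtnf3 over its whole range. Svep1 went from 7.13 on day 0 to 8.90 on day 3 and 12.79 on day 28. With Fam221b, Gng10 and Rai14 the likeness was one of shape, since their group means spanned 1.31 to 1.97 log2 units.

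The 5 most like Fam3c were Tmem209 (r = 0.932), Tesk1 (0.912), Dlx5 (0.880), a homeobox factor of bone development, Cnr1 (0.871), the cannabinoid receptor CB1, and Fsbp (0.867). Cnr1 had a mean log2 level of 5.90 on day 0, 7.90 on day 3, 4.60 on day 14 and 4.91, the low floor, in P1. Its day 14 mean is one of floor values. Like Fam3c, Tmem209 and Fsbp had a higher mean log2 level in P1 than on day 0 (9.95 against 9.86 and 5.28 against 4.60). The other 3 had a lower one. The day 0 mean of Fsbp is also one of floor values, and Dlx5 was at 4.91, the low floor, on days 14 and 28 and in P1. After quantile normalization, 5 of 5 neighbours were shared for Lep, 3 of 5 for C1qtnf3 and 2 of 5 for Fam3c. For Lep this again rests on the day 0 mean.

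**Figure D5:**
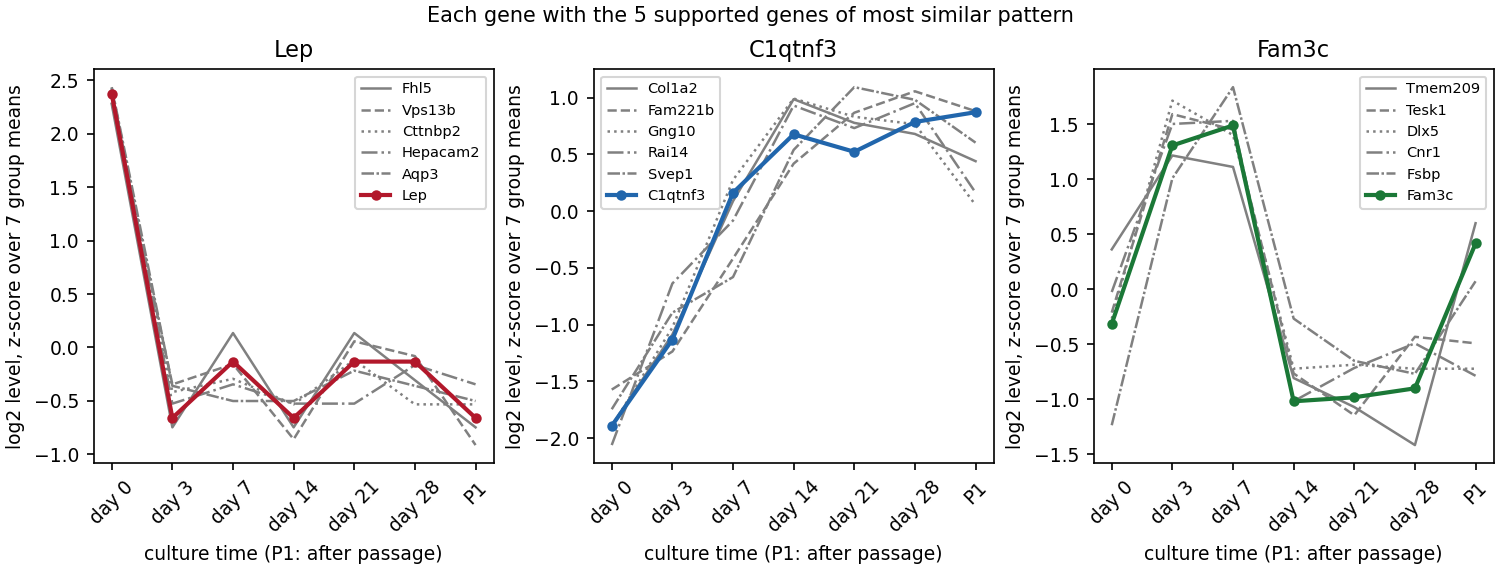
Log2 level as z-score over the 7 group means against culture time, for each gene (coloured) and the 5 supported genes with the highest Pearson's r (grey lines). Lep and its neighbours drop after day 0, C1qtnf3 and Col1a2 climb to day 14, and Fam3c and its neighbours peak on days 3 and 7.

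Few other genes of the same systems could be read by symbol. Of 46 genes in a list of adipokines and other secreted factors, 4 had a supported symbol, all of them tested. Beside Lep these were Gdf6, a ligand of the bone morphogenetic protein type, Penk, the precursor of enkephalins, and Pdgfd, a platelet-derived growth factor. On day 28 against day 0, 2 of the 4 were called higher and 1 lower, against 13.2% of all gene models higher and 47.1% lower. The median log2 difference of the 4 was 0.06, against -0.54 over all 7767 gene models and -0.23 over the 400 tested genes with a supported symbol. Gdf6 was at a floor in all 3 day 0 libraries and at 774 to 866 on day 28, so its fitted difference of 5.08 ± 0.26 (SE) is no bound. Pdgfd went from 1097 to 1669 on day 0 to 2310.0 to 3017 on day 28, a log2 difference of 1.03 ± 0.15, and Lep is described above. Penk had -0.90 ± 0.39 and was not called. C1qtnf3 was the 1 supported gene of 12 in its family list and Fam3c the 1 of 4 in the FAM3 list, so their paralogs were not analysed here. None of 20 genes of leptin receptor signalling, the receptor among them, had a supported symbol.

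Of 57 genes of adipocyte differentiation and lipid handling, 7 had a supported symbol. Aqp7 is also the adipocyte marker above, and Prlr is also counted above as an epithelial marker. Their values here are the same ones and add nothing separate. On day 3 against day 0 all 7 were called lower, with a median log2 difference of -2.27, against -0.42 over all gene models and 40.5% of them called lower. On day 28 against day 0, 2 were called higher and 5 lower, against 13.2% of all gene models higher and 47.1% lower. Of the 400 tested genes with a supported symbol, 66.5% were called in that comparison, 107 higher and 159 lower. Those higher were Abca1, a cholesterol exporter (1.39 ± 0.17, SE), and Runx1t1, a transcriptional co-repressor (1.32 ± 0.17). The 4 furthest down were Prlr (-10.10 ± 0.49), Aqp7 (-6.06 ± 0.25), Klf4, a zinc finger factor of early adipogenesis (-4.59 ± 0.19), and Pdk4, a kinase that restrains glucose oxidation (-2.17 ± 0.26). The floors limit the values of Prlr and Aqp7. In P1 against P0 day 28, 2 of the 7 were called higher (Cav1 and Pdk4) and 2 lower (Klf4 and Abca1). Of all gene models 1.85% were called higher and 12.9% lower. Of the 400 tested genes with a supported symbol, 17 were called higher and 133 lower. The lower call of Klf4 was lost after quantile normalization and after scaling to the median.

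Among the other cell markers listed, none of 10 endothelial and none of 8 mural ones had a supported symbol. Of 14 myeloid markers, 4 had one (Cd72, Tfec, Atp6v0d2 and Lyn), and their summed level was 2191 to 2526 on day 0, 1440.1 to 2180.1 on day 14, 5275 to 7458 on day 28 and 1125 to 1389 in P1. All 4 were called lower in P1 against P0 day 28, as were 12.9% of all gene models. Fam3c was among the 1.85% called higher. Of the 400 tested genes with a supported symbol, 133 were called lower and 17 higher. The part of myeloid cells in the level of Fam3c was not tested.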

How the data were processed

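RNA of 21 libraries (7 groups of 3) was amplified from 15 ng with a SMART-Seq kit that does not mark strand, after extraction with either of 2 kits, per the labels' protocols. The sources used here do not name the kit of each library, nor the scaling, annotation, counter or aligner. The build was GRCm39, per the submitters' processing notes. The authors deposited log2 values that sum to 0 over the libraries of each gene model and hold a pair of floors. No column of the table was without a sample.

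From the steps between values, 1 factor per library was recovered, and with it the level of 30466 of 30961 gene models. A further 493 had 1 value throughout and 2 were not resolved. Where a gene model had values at both floors, its other values under 200 reads were whole within 0.1 read in 100.0% of 14588 cases. On simulated data, 11888 of 12000 gene models were resolved, all 11888 of them rightly.

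Symbols were checked by the offset, in steps of 100 bases and up to 1.6 Mb, at which GENCODE M21 exons (GRCm38) best separated gene models above and at the floor. Symbols were kept where the posterior of an offset within 1000 bases reached 0.9. In a simulation 2153 of 3883 genes were kept, 9 of them wrongly. A far larger share was kept there than in the deposited data (487 of 16184). The simulated error rate therefore does not carry over to the symbols kept. No coordinates were converted between builds, and no row was renamed.

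Levels were compared with limma 3.58.1 (trend, no pseudocount) in R 4.3.3, in 1 fit of all libraries with 7 groups. Benjamini-Hochberg adjustment ran over the 7767 gene models with a level above 30 in at least 3 libraries. Since the labels name no separate animals or dishes, the p-values cover the spread among these libraries only, which may be technical. Day 3 against day 0 was also simulated over these 7767 gene models. Of 100 genes moved by 2 log2 units 92 were found, of 100 moved by 1 unit 66 were found, and 14 calls were false. Python 3.11.15, numpy 2.4.6, pandas 2.3.3, scipy 1.17.1 and matplotlib 3.10.9 served the other steps.

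The 3 genes and all lists were chosen with earlier results of these data known. The genes named beside them were the 5 most correlated with each over the group means and, for each list, at most 4 called higher and 4 called lower at day 28 against day 0. Alternatives were other scalings, the floors made equal, no filter, the compared groups alone, a replicate block and each library left out. Scaling to recovered reads was added after the data were seen. Over 63 pairs of libraries with the same replicate number, the correlation of deviations from the group means was -0.118 to 0.12, and 5 pairs exceeded 0.1, so the numbers were not taken to pair libraries.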

Additional observations from a re-analysis of the deposited data

How the results depend on the processing

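Of 156 values of the 3 genes under the alternatives, 145 kept their direction and call, leaving out 39 values of Lep between groups that are all at a floor. Part of this tally was fixed in advance. Lep had to differ from day 0, and the block, the filter and the choice of groups fitted cannot change a log2 difference. Making the floors equal cannot change one of C1qtnf3 or Fam3c either, as these genes had no value at the floor for no reads. Of the counts of called gene models, 61 of 65 stayed within 1.5 times. For Fam3c, day 28 against day 14 was -0.11 after quantile normalization, -0.13 after scaling to the median gene model and -0.054 after scaling to recovered reads, and -0.0060 to 0.21 with libraries left out, against 0.08. Day 28 against day 0 was -0.13, -0.067 and 0.11 under those scalings, and -0.49 to -0.27 with libraries left out. P1 against P0 day 28, 0.91, lost its call when only the compared groups were fitted and was 0.77 to 1.04 with libraries left out. For C1qtnf3, P1 against P0 day 28 was -0.028 to 0.37 with libraries left out. Day 28 against day 14 had 505 called gene models, 136 in the compared groups alone and 276 to 496 with libraries left out (276 without replicate 3 of P0 day 28). P1 against P0 day 28 had 1144, 528 in the compared groups alone and 748 to 1070.0 with libraries left out (748 without the same library). The share of calls that were higher was 21.1%, 23.3%, 87.5% and 12.6% for day 3 against day 0, day 14 against day 3, day 28 against day 14 and P1 against P0 day 28. It was 52.8%, 50.8%, 54.8% and 49.1% after quantile normalization, 33.8%, 42.3%, 60.7% and 39.4% after scaling to the median, and 49.8%, 30.3%, 72.9% and 40.7% after scaling to recovered reads. A limit of 200 bases kept 136 symbols and none of the 3 genes. The cause of these changes was not tested.

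With the replicate number as a block no call of the 3 genes changed. Their differences (Fam3c 1.12 from day 0 to day 3) could not change, since every group holds each number once. The counts of called gene models with the block were 3961, 2606, 479, 4631 and 1078, against 3992, 2623, 505, 4683 and 1144. Depth limits Lep most: its highest library held 53 reads, near the floors.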
